A study of Mus musculus with 12 samples.

Results

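The 10 genes described here encode steps of aerobic glycolysis, the pathway that photoreceptors run at a high rate in the light-sensing outer retina. They are Slc2a1, Hk1, Hk2, Pfkl, Pfkp, Aldoa, Aldoc, Pkm, Ldha and Ldhb. They were chosen by their place in the pathway, with earlier results of these data known. Each locus was taken as the mm10 gene of GENCODE M21 with 5 kb on each side. Differentially methylated regions (DMRs), stretches of CpGs that the authors called as different between both genotypes, were assigned to a gene when they overlapped its locus. Of 193836 DMRs found by whole-genome bisulfite sequencing (WGBS), 120 lay at these loci. Of 592906 DMRs found by bACE-seq, 180 did.

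Genomic DNA came from whole retina of C57 BL/6J mice at postnatal day 21 (P21), after the retina has stopped producing neurons. The Tet tcKO group carried loxP-flanked Tet1, Tet2 and Tet3 alleles that were deleted in retinal progenitors by a Chx10-Cre-GFP transgene. Expression of this transgene can be mosaic, and Cre+ mice were bred with each other so that Tet tcKO animals had 2 copies, which was meant to lower mosaicism. The control group, Cre-, lacked the transgene, came from age-matched Cre- breeders and carries the genotype label WT. For WGBS and for bACE-seq, 3 libraries were made of each genotype, which gives 12 in all. The paper describes DNA from retinas pooled from 2 animals and the use of matched DNA for both assays. The libraries of the 2 assays are therefore not independent samples. TET enzymes act on 5-methylcytosine (5mC), which they oxidise to 5-hydroxymethylcytosine (5hmC) on the way to unmodified cytosine. WGBS reads 5mC and 5hmC together, whereas bACE-seq reads 5hmC alone.

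The lists give 1 mean level per group and region. Replicate spread and read depth were therefore not analysed here, no test was possible on these files, and every difference below is a description of group means in percentage points. The columns of the lists do not name the genotypes, and Cre- was taken as the first and Tet tcKO as the second, the order in the names of the lists. Each region was listed because its groups differed, so a difference at a listed region is no independent result, and a base outside the lists is not thereby shown to be unchanged. In whole retina, a different mix of cell types and a different level within cells cannot be told apart. The lists hold no transcripts, so the tissue label could not be checked against expression markers. Failure of cytosine conversion was not analysed here.

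Glucose enters retinal cells through facilitative transporters and is phosphorylated by hexokinase, committed to glycolysis by phosphofructokinase, split by aldolase and turned into pyruvate by pyruvate kinase. Photoreceptors convert much of that pyruvate to lactate even when oxygen is present, through lactate dehydrogenase. Several of these steps have paired genes whose products differ in tissue distribution or regulation, which makes Hk1 and Hk2, Pfkl and Pfkp, Aldoa and Aldoc, and Ldha and Ldhb natural pairs to set side by side.

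All 120 WGBS regions at the 10 loci were higher in Tet tcKO, as were 191164 of the 193836 in the whole list (98.6%). All 180 bACE-seq regions were lower, as were 592697 of 592906 (100% after rounding). The direction therefore did not set these genes apart. Weighted by CpGs, the level of modified cytosine over the WGBS regions went from 52.5% in Cre- to 73.1% in Tet tcKO, a difference of 20.6 points. Over all WGBS regions of the genome the levels were 56.8% and 73.8%, a difference of 17 points. The level of 5hmC over the bACE-seq regions was 20.4% in Cre- and 5.04% in Tet tcKO, beside 16.1% and 3.87% over all bACE-seq regions. Within the listed regions, the 5hmC level of Tet tcKO was thus 24.7% of that of Cre- at these genes and 24% over the whole list.

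Having a region at all did not set these genes apart. A WGBS gain, a region higher in Tet tcKO, was present at 10 of 10 loci and at 76.8% of 21938 protein-coding genes measured the same way. A 5hmC loss was present at 10 of 10 loci and at 88.3% of protein-coding genes. No member had a WGBS loss, which 4.9% of protein-coding genes had, and no member had a 5hmC gain, which 0.401% had. The extent of the locus inside a region was larger than at most genes, which were not matched to the members by expression. WGBS gains held a median of 21% of the bases of the member loci, from 5.21% at Ldhb to 56% at Slc2a1, against a median of 3.36% over all protein-coding genes and a 90th percentile of 13.6%. For 5hmC losses the median was 61.1% of the bases of the member loci, from 28.7% at Ldhb to 75.3% at Pfkl, against 27.7% over all protein-coding genes. The members were chosen with earlier results of these data known, so these contrasts are descriptions and not independent findings.

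**Figure D1:**
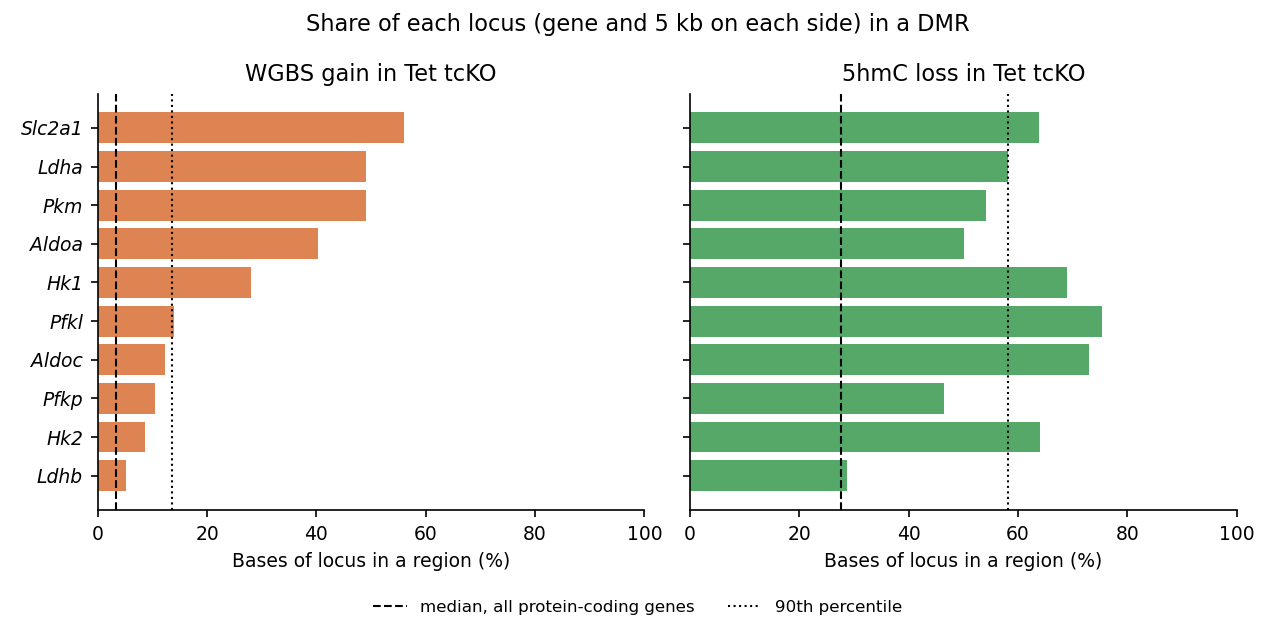
Percent of the bases of each locus (gene with 5 kb on each side) that lay in a WGBS gain (left) or in a 5hmC loss (right), 1 bar per gene, with the median (dashed) and 90th percentile (dotted) over 21938 protein-coding genes. Slc2a1, Ldha, Pkm, Aldoa and Hk1 stood well past the 90th percentile of 13.6% for WGBS gains, whereas Ldhb, at 5.21%, was near the median.

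The order of the members differed between the assays. By WGBS gains, Slc2a1 (56% of bases), Ldha (49.1%), Pkm (49%), Aldoa (40.3%) and Hk1 (28%) came first, followed by Pfkl (14%), Aldoc (12.3%), Pfkp (10.4%), Hk2 (8.66%) and Ldhb (5.21%). By 5hmC losses, Pfkl (75.3%) and Aldoc (72.9%) led, and Pkm (54.2%) and Aldoa (50.2%) were in the lower part of the order with Pfkp (46.4%) and Ldhb (28.7%). With differences of at least 10 points the share of Pfkl in 5hmC losses was 38.3%, behind 7 other members, and that of Aldoc was 69%, the highest. With group means that differed by at least 0.2, Pkm (39.3%), Hk1 (34.1%), Ldha (31.5%), Slc2a1 (24.7%) and Aldoa (19.1%) led in 5hmC losses. These were also the genes with the largest shares in WGBS gains, and Pfkl then had 14.8% and Aldoc 11.1%. With all listed regions, Ldhb was last in both orders by bases. By share of CpGs, Aldoa was last in 5hmC losses, with 26% against 38% at Ldhb, and with only gains of at least 10 CpGs Hk2 was last in WGBS, with 2.71% of bases against 3.67%. The place of Aldoc in WGBS gains changed with the flank, from 27.8% of bases with none to 7.36% with 10 kb, and it was 6.91% in gains of at least 10 CpGs. With no replicate values, it was not tested which neighbours in these orders differ.

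Long gains were common at these genes. Of the 120 WGBS gains, 13 spanned at least 2000 bp (10.8%), beside 1.33% of all WGBS regions. Slc2a1 had 4 of them, Hk1 and Pkm had 3 each, Ldha had 2 and Aldoa had 1, and Hk2, Pfkl, Pfkp, Aldoc and Ldhb had none. In 14 gains (11.7%) the Cre- level was under 30%, beside 9.43% of all WGBS regions.

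**Figure D2:**
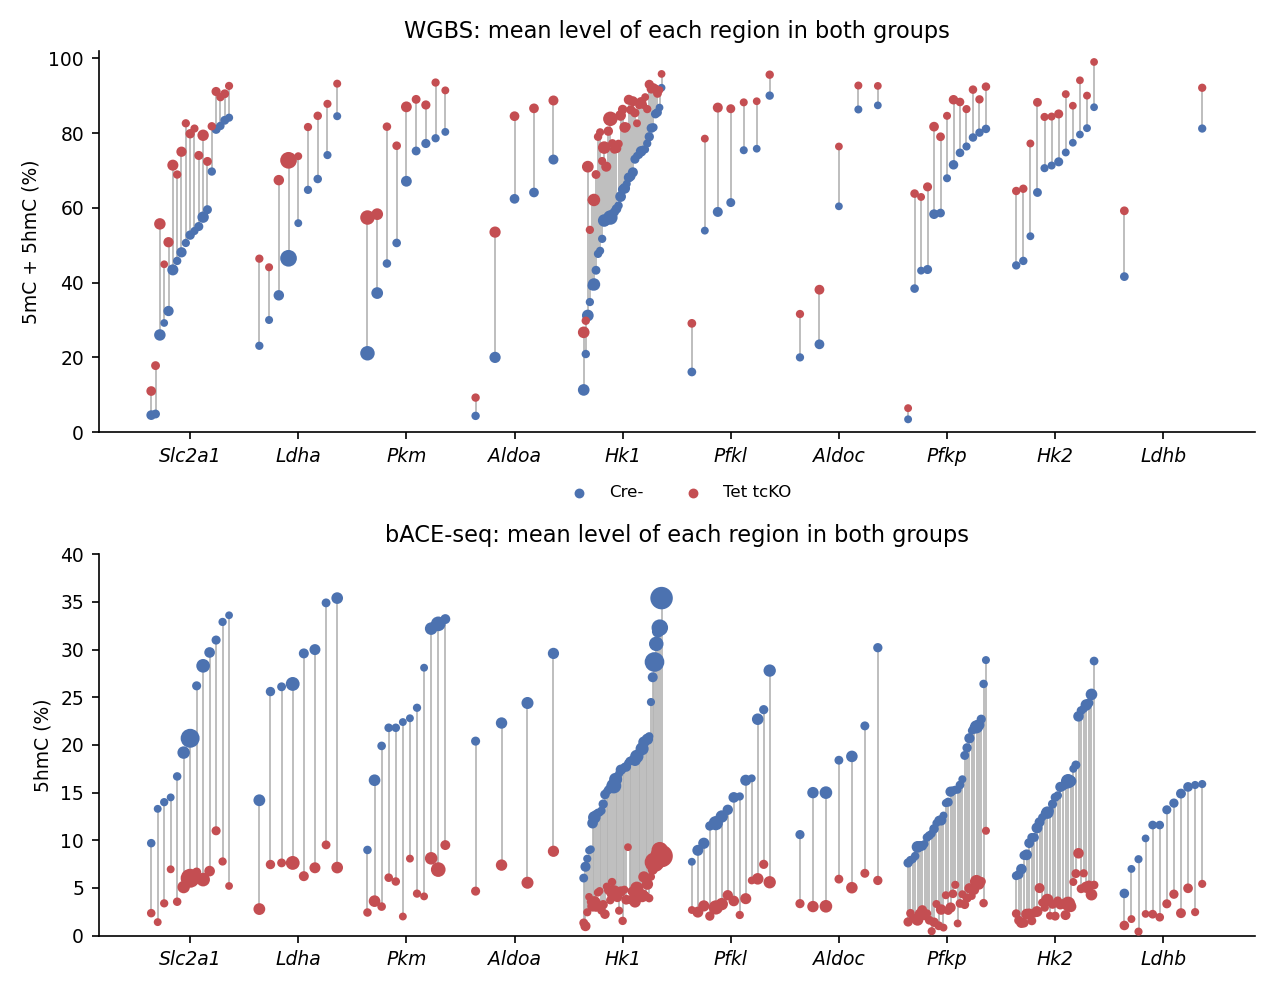
Mean level of every region at the 10 loci in Cre- (blue) and Tet tcKO (red), joined by a grey line, with 1 pair of points per region, sorted by the Cre- level within a gene, and point area growing with the number of CpGs. Modified cytosine by WGBS (top, in %) was higher in Tet tcKO in all 120 regions and 5hmC by bACE-seq (bottom, in %) was lower in all 180, the direction that 98.6% and 100% (after rounding) of all listed regions had.

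Slc2a1 encodes GLUT1, the glucose transporter through which glucose reaches the outer retina and enters photoreceptors. Its gene spans chr4:119108711-119137983 on the plus strand. The locus held 19 WGBS gains with 334 CpGs, and their levels were 46.4% in Cre- and 66.8% in Tet tcKO. A run of long gains lay along the first 2 introns, with gaps between them. Over all introns of the gene, 68.9% of the bases were in a gain. The gain with the most CpGs, chr4:119111447-119116235 in intron 1, had 41 CpGs and went from 26% to 55.7%. It was followed by gains of 2881 bp (43.4% to 71.4%), 2550 bp (48.1% to 75%) and 3282 bp (57.5% to 79.4%). The Cre- level was thus lower in the long gain nearest the start site and higher in each of the next 3. The 4 gains over parts of exons 3 to 9 had Cre- levels of 81% to 84.1% and changes of 7.11 to 10.1 points, whereas those in exon 10 went from 69.7% to 81.8% and from 59.5% to 72.4%.

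The start site of Slc2a1 itself lay outside any region. The nearest gain, chr4:119108037-119108577, ended 134 bp upstream of it and went from 4.86% to 17.8% over 13 CpGs, a low level in both groups with no overlapping bACE-seq region. The nearest 5hmC loss was 1152 bp upstream, with 4 CpGs at 33.6% in Cre- and 5.21% in Tet tcKO. Only 2.17% of the bases within 2 kb of the start site were in a 5hmC loss, the lowest share of the 10 members, although 63.9% of the whole locus was.

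The gain with the largest change among Slc2a1 regions of at least 5 CpGs was chr4:119128627-119128975 in intron 2, with 8 CpGs and levels of 50.6% and 82.6%. The 240 bases at its centre, chr4:119128682-119128921 of GRCm38 on the plus strand, are shown because they hold sites of that gain. The levels are those of the whole gain. The 3 CpGs of the window, in capitals, are spaced far apart.
Slc2a1 intron 2: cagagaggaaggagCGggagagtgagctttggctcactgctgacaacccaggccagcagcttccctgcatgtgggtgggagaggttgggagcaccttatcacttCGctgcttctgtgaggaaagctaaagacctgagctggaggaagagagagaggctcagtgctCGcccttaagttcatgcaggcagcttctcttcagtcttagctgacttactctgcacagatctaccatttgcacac

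Hexokinase phosphorylates glucose and so traps it in the cell. Hk1 is the form found in most neurons, and Hk2 is an inducible form found in photoreceptors and in fast-growing cells. Hk1 had 39 WGBS gains with 750 CpGs and levels of 56.7% and 76.3%, whereas Hk2 had 12 with 86 CpGs and levels of 65.9% and 82.5%. The Hk1 locus, 121054 bp, was longer than that of Hk2, 59430 bp, yet its share of bases in a gain was also larger, 28% against 8.66%. The share of bases in a 5hmC loss was close, 68.9% and 64%, but it was 34.1% and 7.41% in losses that differed by at least 0.2. The level of 5hmC over all listed losses was 23.7% in Cre- at Hk1 and 15.5% at Hk2, and 6.01% and 3.58% in Tet tcKO.

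In Hk1, on the minus strand of chr10:62268855-62379908, the gains ran through the body of the gene. The gain with the most CpGs, chr10:62299032-62302689, covered exon 7 with parts of introns 6 and 7 of the transcript Hk1-203, and its 84 CpGs went from 57.4% to 83.8%. The largest change at any member was also in Hk1, at chr10:62295730-62297002, where 44 CpGs from intron 7 to exon 10 went from 31.2% to 71%. The longest 5hmC loss of Hk1, chr10:62308852-62326339, spanned 17488 bp of introns 4 and 5 with 257 CpGs and went from 35.4% to 8.35%. Past the end of Hk1, 3 gains overlapped the neighbouring gene Tacr2. In Hk2, on the minus strand of chr6:82725025-82774454, the gain with the most CpGs had 15, at chr6:82744985-82745747 in intron 3, and went from 72.3% to 85.1%.

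The central 240 bases of the Hk1 gain with the largest change, chr10:62296247-62296486 of GRCm38 on the minus strand, lie in intron 8. They are shown because several of their 11 CpGs, in capitals, sit close together in a guanine-rich stretch, in contrast with the Slc2a1 window.
Hk1 intron 8: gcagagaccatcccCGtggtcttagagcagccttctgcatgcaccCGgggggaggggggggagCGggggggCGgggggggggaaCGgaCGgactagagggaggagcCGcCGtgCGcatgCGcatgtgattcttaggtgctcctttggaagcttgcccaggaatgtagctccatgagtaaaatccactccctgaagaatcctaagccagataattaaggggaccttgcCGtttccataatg

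Hk1 has 4 annotated start sites and Hk2 has 2. No start site of either gene lay in a WGBS gain. Of those of Hk1, the start site of Hk1-202 has the most CpGs around it, 29 within 250 bp, and its nearest gain was 260 bp upstream, at chr10:62340802-62341498, going from 20.9% to 29.8% over 9 CpGs. The start sites of Hk1-201 and Hk1-205, with 7 and 6 CpGs within 250 bp, lay inside 5hmC losses (17.7% to 3.77% and 20.6% to 5.4%). The gain nearest to Hk1-201, 1535 bp downstream, went from 73% to 85.4%. At the start site of Hk1-203 the nearest gain was 4183 bp downstream (58.9% to 75.7%) and the nearest 5hmC loss 233 bp downstream (13.8% to 3.25%). The start site of Hk2-201 has 37 CpGs within 250 bp. Its nearest gain was 2716 bp downstream and went from 70.6% to 84.3%, and its nearest 5hmC loss was 668 bp upstream and went from 24.4% to 5.31%. A further 5hmC loss, 70 bp downstream of the start site of Hk2-204, went from 8.48% to 2.26%.

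Phosphofructokinase catalyses the committed step of glycolysis. Pfkl is known as the liver form and Pfkp as the platelet form, and both are also made in the nervous system. Pfkl, on the minus strand of chr10:77986947-78010083, had 7 WGBS gains with 74 CpGs at 58.1% in Cre- and 78.1% in Tet tcKO. Pfkp, on the minus strand of chr13:6579768-6648777, had 13 with 141 CpGs at 61.5% and 78.8%. Levels and changes were therefore close in both genes. The gain with the most CpGs in Pfkl, chr10:78002979-78004759 in intron 2, went from 58.9% to 86.8% over 24 CpGs. In Pfkp it was chr13:6630079-6631477, also in intron 2, which went from 58.3% to 81.7% over 21 CpGs. That intron held 5 more Pfkp gains.

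Upstream of both start sites the gains were at low levels. In Pfkl, chr10:78010231-78010732, 424 bp upstream, went from 16.1% to 29.1% over 12 CpGs. In Pfkp, chr13:6648926-6649033, 149 bp upstream of the first start site, went from 3.44% to 6.42% over 5 CpGs, the smallest change at any member and the lowest Cre- level. The nearest 5hmC losses were 661 bp upstream in Pfkl (11.8% to 2.96%) and 666 bp upstream in Pfkp (21.5% to 4.16%).

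Aldolase splits fructose bisphosphate into triose phosphates. Aldoa is the widespread form and Aldoc the form of the nervous system. Aldoa, at chr7:126795234-126800751 on the minus strand, had 5 WGBS gains with 113 CpGs, which took up 40.3% of its bases, at 46.1% in Cre- and 69.4% in Tet tcKO. Aldoc, at chr11:78322968-78327781 on the plus strand, also had 5, with 44 CpGs and 12.3% of its bases, at 40.6% and 52.8%. The difference between genotypes was 23.3 points at Aldoa and 12.2 points at Aldoc, the smallest of the 10 members. In 5hmC losses the order was turned, with 50.2% of the bases of Aldoa and 72.9% of those of Aldoc. In losses that differed by at least 0.2 it was not, with 19.1% at Aldoa and 11.1% at Aldoc.

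A single gain, chr7:126795701-126797939, covered 38 CpGs from intron 2 to exon 9 of Aldoa and went from 20% to 53.5%. The start sites of Aldoa-201 and Aldoa-202, with 41 and 40 CpGs within 250 bp, lay outside it. Their nearest gain, chr7:126800023-126800175, was 769 bp or more upstream and went from 4.36% to 9.25% over 9 CpGs. The start site of Aldoa-203 has 2 CpGs within 250 bp, and its nearest gain, chr7:126800704-126801527, 257 bp upstream, went from 62.4% to 84.5%. The nearest 5hmC losses of these start sites were 1080 bp or more away and went from 29.6% to 8.85% upstream and from 24.4% to 5.55% downstream. The annotation holds another gene record named Aldoa just upstream, and the Fam57b gene runs through the locus on the other strand. All 5 gains overlapped Fam57b and 3 overlapped the other Aldoa record. With both Aldoa records taken as the gene, the share of bases in gains was 31.5%.

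The 240 bases at the centre of the intragenic Aldoa gain, chr7:126796701-126796940 of GRCm38 on the minus strand, run from intron 4 to exon 6. They are shown as sequence from a gain in the body of the gene whose mean level was low in Cre-, with 3 CpGs in capitals. That level is of the whole gain and not of this window.
Aldoa exons 5 and 6: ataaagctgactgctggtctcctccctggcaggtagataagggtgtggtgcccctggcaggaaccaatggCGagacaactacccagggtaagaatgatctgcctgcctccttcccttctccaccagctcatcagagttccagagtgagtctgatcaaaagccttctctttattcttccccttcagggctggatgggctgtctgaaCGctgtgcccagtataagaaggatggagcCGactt

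Aldoc was 1 of 2 members with a start site inside a WGBS gain, beside 7.84% of all protein-coding genes. The gain, chr11:78322958-78323980, covered the start site of Aldoc-201 and went from 23.5% to 38.1% over 22 CpGs, which made it also the Aldoc gain with the most CpGs. The start site of Aldoc-202 lay 220 bp past its end and inside a 5hmC loss, chr11:78323024-78325689, that went from 15% to 3.08%. In all, 3 members had a start site in a 5hmC loss (Aldoc, Hk1 and Ldha), beside 18.3% of protein-coding genes.

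The RefSeq promoter at the first Aldoc start site, chr11:78322823-78323122 of GRCm38.p6 on the plus strand, is shown because 165 of its 300 bases were in that gain and 99 in the 5hmC loss. It has 8 CpGs, in capitals.
Aldoc promoter: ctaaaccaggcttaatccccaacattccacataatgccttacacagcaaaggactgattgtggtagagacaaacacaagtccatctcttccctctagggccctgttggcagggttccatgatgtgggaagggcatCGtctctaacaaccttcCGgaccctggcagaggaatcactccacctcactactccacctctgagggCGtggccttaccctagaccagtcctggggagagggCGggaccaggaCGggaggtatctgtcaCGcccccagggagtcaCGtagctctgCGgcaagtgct

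Pyruvate kinase makes pyruvate and ATP in the last step of glycolysis. Pkm, at chr9:59656368-59679375 on the plus strand, makes an M1 and an M2 form by using 1 of 2 alternative exons, and M2 is the form known from proliferating cells and from photoreceptors. The locus had 9 WGBS gains with 224 CpGs, which took up 49% of its bases and went from 44.1% to 70%. The difference of 25.9 points was the largest of the 10 members. The level of 5hmC over 12 losses went from 27.1% to 6.27%, and the Cre- level was again the highest of the 10.

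The longest WGBS gain at any member, chr9:59658486-59666316, spanned 7831 bp from intron 1 to intron 3 of Pkm and went from 21.1% to 57.4% over 84 CpGs. It began 2118 bp past the first start site. The start sites of Pkm-201 and Pkm-202, with 39 CpGs within 250 bp each, were outside both kinds of region, and 2.09% of the bases within 2 kb of them lay in a gain. The nearest 5hmC loss was 702 bp upstream of the first and went from 23.9% to 4.41%. Only 24.7% of the bases of the long gain were in a 5hmC loss, in contrast to the rest of the gene, where a pair of losses of 5585 bp (32.7% to 6.93%) and 4498 bp (32.2% to 8.11%) ran from intron 3 to exon 10. Past the end of Pkm, a gain of 2311 bp in the neighbouring gene Gramd2 went from 37.2% to 58.3%.

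Both alternative exons were partly in gains of their own. RefSeq assigns the 167 bp exon at chr9:59675029-59675195 to isoform M1, among others, and that at chr9:59675568-59675734, also 167 bp, to isoform M2. The gain at the M1 exon, chr9:59675035-59675254, went from 78.6% to 93.5% over 8 CpGs. The gain at the M2 exon, chr9:59675663-59676213, went from 75.2% to 89% over 13 CpGs. Both exons lay in the same 5hmC loss. The first gain covered 161 of the 167 bases of its exon and the second 72 of 167, so the levels are those of the gains and not of whole exons.

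The exon after them was partly in a gain with a larger change. The gain chr9:59678012-59678201, at the border of intron 9 and exon 10 of Pkm-201, had 10 CpGs in 190 bp and went from 45.1% to 81.7%. Its change of 36.6 points was the largest of the Pkm regions, just above the 36.3 points of the long gain. The sequence of the whole gain, chr9:59678012-59678202 of GRCm38 on the plus strand, is shown for its dense CpGs, in capitals, inside an exon that both transcripts share.
Pkm intron 9 and exon 10: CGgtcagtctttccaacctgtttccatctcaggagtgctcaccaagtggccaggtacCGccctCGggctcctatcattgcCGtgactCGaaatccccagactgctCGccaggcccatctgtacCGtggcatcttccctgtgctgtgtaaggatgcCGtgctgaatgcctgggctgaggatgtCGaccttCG

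Lactate dehydrogenase interconverts pyruvate and lactate. Ldha makes the subunit linked with lactate production, and Ldhb the subunit linked with lactate use. At Ldha, on the plus strand of chr7:46841475-46855627, 9 WGBS gains with 202 CpGs took up 49.1% of the bases and went from 47.8% to 72.2%. At Ldhb, on the minus strand of chr6:142490249-142507957, 2 gains with 20 CpGs took up 5.21% and went from 57.4% to 72.3%. The loci are of like length, 24153 bp and 27709 bp, with 400 and 384 CpGs. The pair thus had the widest gap in gain coverage of the 4 paralog pairs.

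The gap was seen in 5hmC too. At Ldha 8 losses took up 58.2% of the bases and went from 26.9% to 6.62%, and at Ldhb 12 losses took up 28.7% and went from 12.2% to 2.88%. The Cre- level of 5hmC reached 35.4% at Ldha, and its highest value at Ldhb was 15.9%. The Tet tcKO level relative to that of Cre- was alike, 24.6% of it at Ldha and 23.7% at Ldhb.

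A single Ldha gain, chr7:46847121-46854338, ran from exon 1 to intron 7 and went from 46.5% to 72.7%. With 123 CpGs it had the most of any member gain. It covered the start sites of Ldha-201 and Ldha-213 and began 39 bp past that of Ldha-210. The start site of Ldha-213 was also inside a 5hmC loss, chr7:46847182-46851261, that went from 26.4% to 7.63%. The start sites of Ldha-202 and Ldha-214, which lie further upstream with 45 CpGs within 250 bp, were outside all regions. The gain nearest to them, chr7:46844313-46845216, 623 bp or more upstream, went from 23.1% to 46.4% over 8 CpGs and had no overlapping 5hmC loss.

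At Ldhb the start site was outside all regions as well. The nearest gain there, chr6:142505840-142506855, 1102 bp downstream, was also the one with the most CpGs and went from 41.6% to 59.2% over 12. The nearest 5hmC loss was 588 bp downstream and went from 4.43% to 1.07%, the lowest Cre- level among the 5hmC losses of all members. The other Ldhb gain, in intron 2, went from 81.2% to 92.1%.

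The RefSeq promoter of the internal Ldha start site, chr7:46846832-46847131 of GRCm38.p6 on the plus strand, is shown because the gain with 123 CpGs begins in its last 11 bases. It has 13 CpGs, in capitals, against 30 in the 300 bases of the upstream Ldha promoter, which no region touched.
Ldha internal promoter: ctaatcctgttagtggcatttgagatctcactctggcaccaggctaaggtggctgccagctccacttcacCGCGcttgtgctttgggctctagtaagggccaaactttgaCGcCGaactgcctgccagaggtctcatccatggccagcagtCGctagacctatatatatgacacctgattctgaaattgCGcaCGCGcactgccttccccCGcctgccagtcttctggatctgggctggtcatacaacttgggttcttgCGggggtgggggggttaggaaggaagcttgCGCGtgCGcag

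**Figure D3:**
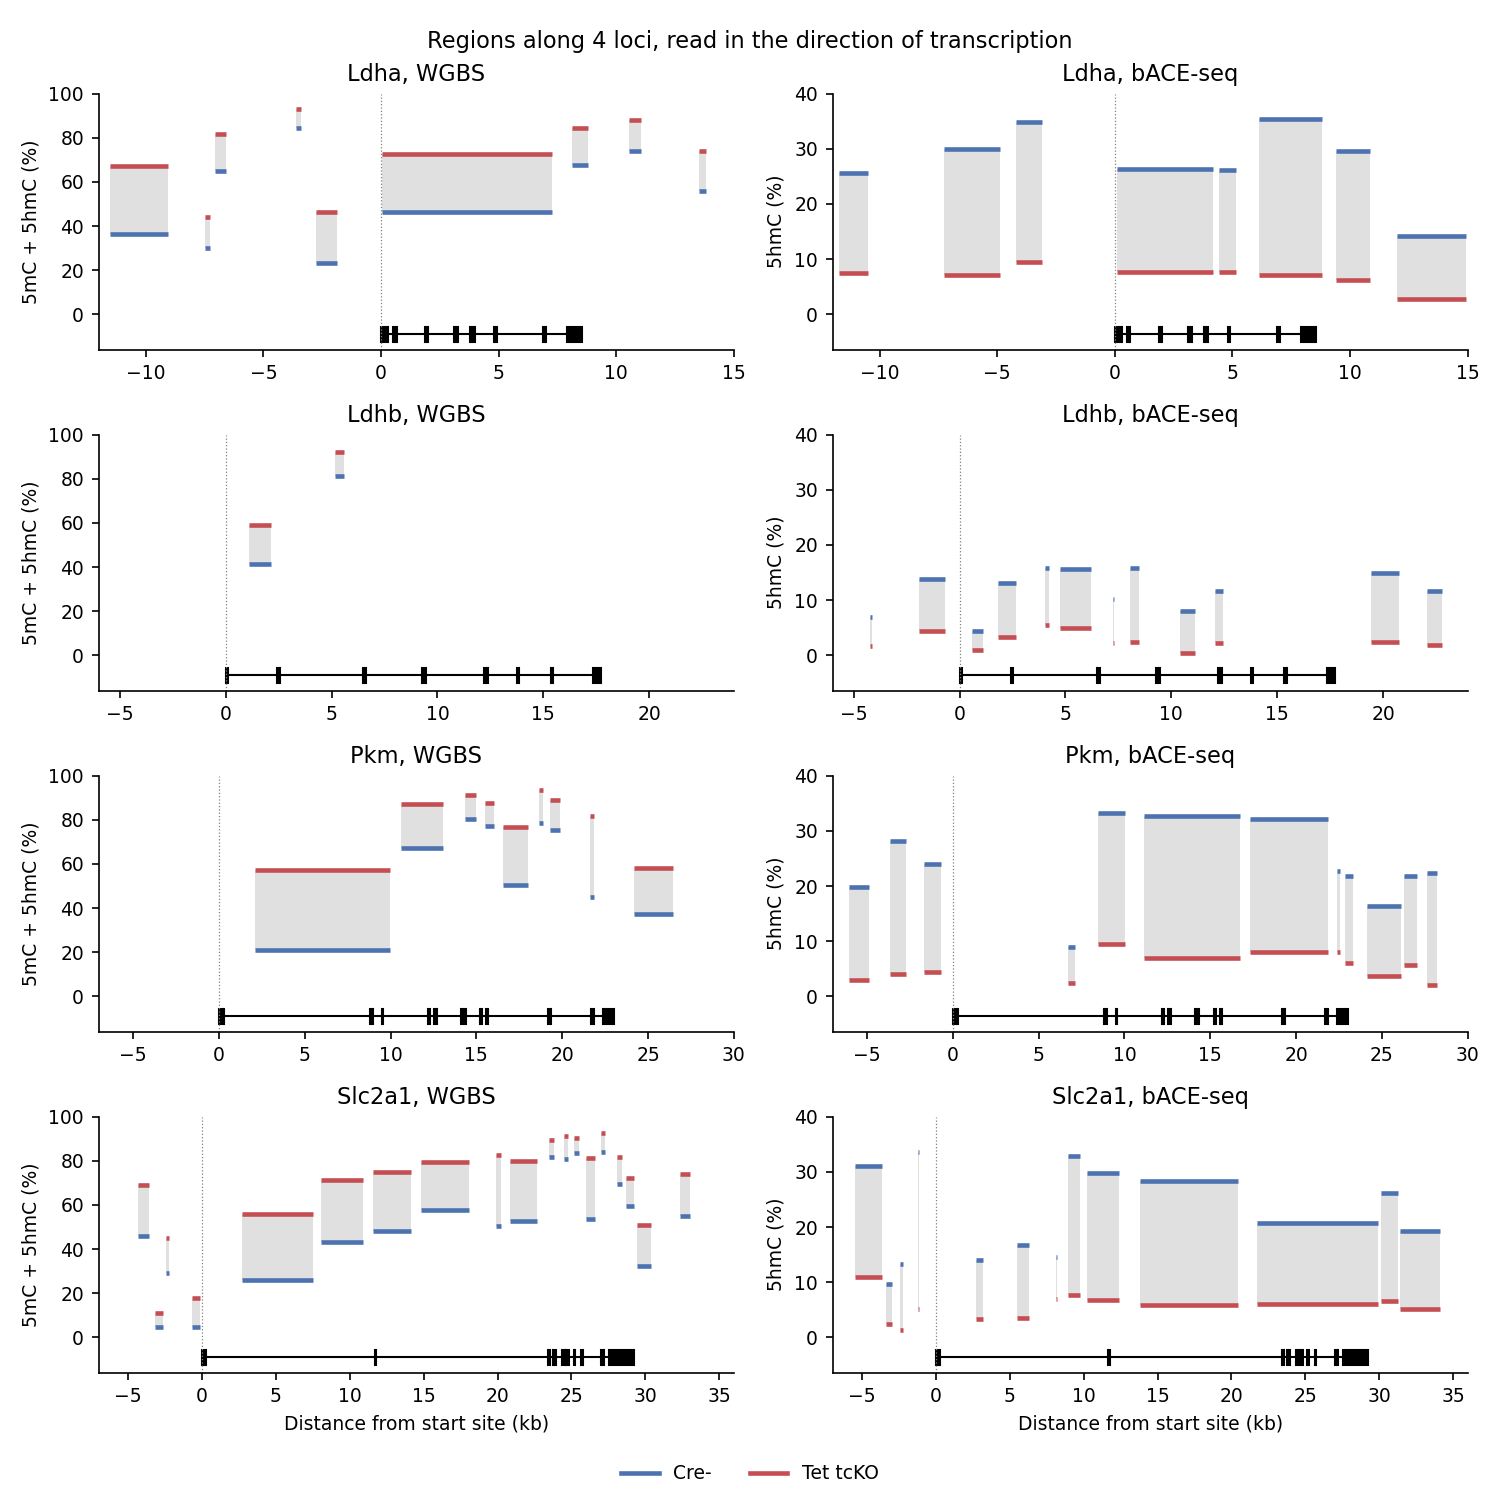
Mean levels of the regions along Ldha, Ldhb, Pkm and Slc2a1 for WGBS (left, modified cytosine in %) and bACE-seq (right, 5hmC in %) against the distance in kb from the start site of the annotated transcript with the longest coding sequence, with exons as black boxes below. Horizontal lines are Cre- (blue) and Tet tcKO (red), the grey area is the difference, and space without lines is outside the listed regions, as over most of Ldhb in WGBS.

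By position, the midpoints of 73 of the 120 WGBS gains were in introns, 13 within 2 kb of a start site, 6 in coding exons, 7 in untranslated exon sequence, 13 in the downstream flank and 8 in the upstream flank. Intronic gains went from 54.7% to 77.2%, and those near start sites from 30.2% to 44.7%. As the midpoint alone set the class, the Ldha gain of 123 CpGs, which covers 2 start sites, counted as intronic. So did several gains that also cover exons. Gains in coding exons had the highest levels, 76.6% and 90.4%. For 5hmC losses, the 107 in introns went from 22% to 5.36%, the 16 near start sites from 17.6% to 4.48% and the 7 in coding exons from 15.8% to 4.18%. Promoters, taken to reach 2 kb up- and downstream of start sites, had a median of 17.2% of their bases in gains over the 10 members and 1.52% over all protein-coding genes. Ldha (58.7%) and Aldoa (44.6%) were highest, and Pkm (2.09%) and Pfkp (2.66%) lowest. For 5hmC losses the median promoter share was 45.2% over the members and 24.1% over all protein-coding genes. In 5hmC losses 6 of the 10 members were above that all-gene median, beside 10 of 10 in gains.

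A 5hmC loss shared at least 1 bp with 115 of the 120 WGBS gains. In these, weighted by CpGs, modified cytosine went from 53.2% to 74%, and the level of 5hmC in the overlapping losses was 25.6% and 6.49%. The level of 5hmC was therefore 48.1% of the WGBS level in Cre- and 8.76% of it in Tet tcKO. The remainder, WGBS minus 5hmC, is a rough level of 5mC, since the regions of both lists have different borders. This remainder came to 27.6% in Cre- and to 67.5% in Tet tcKO. The 5 gains without an overlapping loss were 1 each at Hk2, Pfkp, Aldoa, Ldha and Slc2a1, and 4 of them were the gains nearest upstream of a start site described above.

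The share of 5hmC in the Cre- level differed among the members. It was 61.4% at Pkm, 59.3% at Ldha, 54.2% at Aldoa, 50.5% at Hk1 and 46% at Slc2a1, the 5 genes with the largest share of bases in gains. It was 37.6% at Aldoc, 35.4% at Pfkl, 32.7% at Pfkp, 28.6% at Hk2 and 19.4% at Ldhb. In Tet tcKO the share ran from 4.45% at Ldhb to 10% at Aldoa and Ldha. In 5 gains the Cre- level of the overlapping losses was above the WGBS level of the whole gain. They were the long gain of Pkm (25.8% against 21.1%), the intragenic gain of Aldoa (24.4% against 20%), a Hk1 gain of 43 CpGs (24.5% against 11.3%), a Slc2a1 gain in the upstream flank (9.7% against 4.56%) and a Ldha gain of 6 CpGs (30% in both after rounding). The losses covered from 0.0594% of the bases, at Hk1, to 52.2%, at Aldoa, so the levels do not refer to the same CpGs, and the remainder and shares above carry this limit. The places of Pkm and Aldoa among the members rest partly on such gains, with 84 CpGs at Pkm and 38 at Aldoa. Over the 115 gains, the change in 5hmC and the change in WGBS had a Spearman correlation of -0.36 and a Pearson correlation of -0.33, larger 5hmC losses going with larger gains. Gains of 1 gene often share a loss and all come from the same libraries, so these points are not independent.

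**Figure D4:**
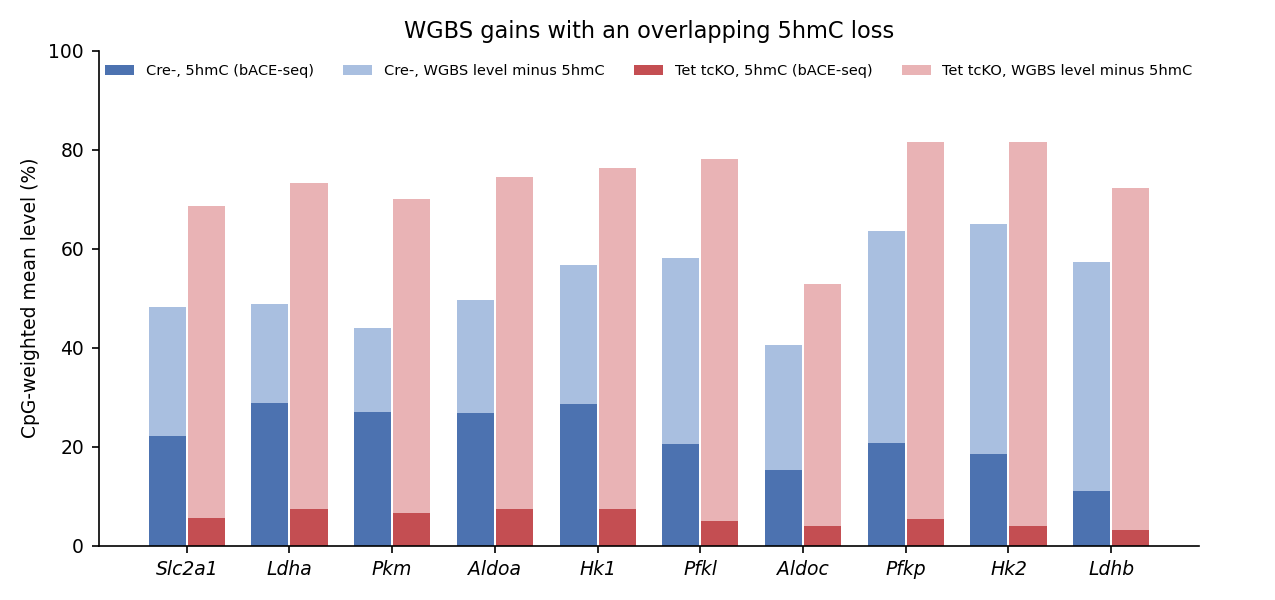
CpG-weighted mean levels, in %, over the WGBS gains of each gene that overlap a 5hmC loss, with Cre- (blue) on the left and Tet tcKO (red) on the right of each pair. The dark part is 5hmC from bACE-seq and the pale part the rest of the WGBS level, which was larger in Tet tcKO at all 10 genes.

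Further genes of the pathway were taken as lists. WGBS gains were present at 19 of 19 other glycolysis genes, 14 of 15 genes of lactate, glucose transport and their regulators, and 10 of 10 subunits of respiratory complex I, and none of the 3 lists had a WGBS loss. The median share of bases in gains was 11.6% for other glycolysis genes, 16.8% for the lactate, transport and regulator genes and 5.79% for complex I, beside 21% for the members and 3.36% for all protein-coding genes. With no flank, the lactate, transport and regulator genes (27.5%) were close to the members (28.8%) and complex I (3.1%) to all protein-coding genes (2.77%). For 5hmC losses the medians were 52.3%, 42.4% and 49.1%, beside 61.1% and 27.7%. Complex I was thus nearer to the other lists in 5hmC losses than in WGBS gains.

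The highest shares in gains among the further genes were at Eno1 (44.3%), an enolase, Gapdh (39.4%), the triose phosphate dehydrogenase, and Nxnl1 (36.7%), which encodes the rod-derived cone viability factor. Txnip (30.5%), an inhibitor of glucose uptake, and Hif1a (27.6%), a hypoxia-inducible transcription factor, followed. Gains at Eno1 went from 51.2% to 69.8%, at Gapdh from 44.3% to 62.7% and at Nxnl1 from 22% to 40.3%. The start sites of Eno1 and Nxnl1 were inside a gain. Among the lowest shares were those of Pdha1 (0%), a subunit of pyruvate dehydrogenase, Pdk4 (0.854%), a kinase that inhibits pyruvate dehydrogenase, Ndufs1 (0.907%), a complex I subunit, and Pfkfb1 (1.3%), which makes an activator of phosphofructokinase in the liver. Pdha1 and Pfkfb1 are on the X chromosome. These 4 genes had 5hmC losses, from 11.6% of the bases at Pfkfb1 to 33.6% at Ndufs1.

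**Figure D5:**
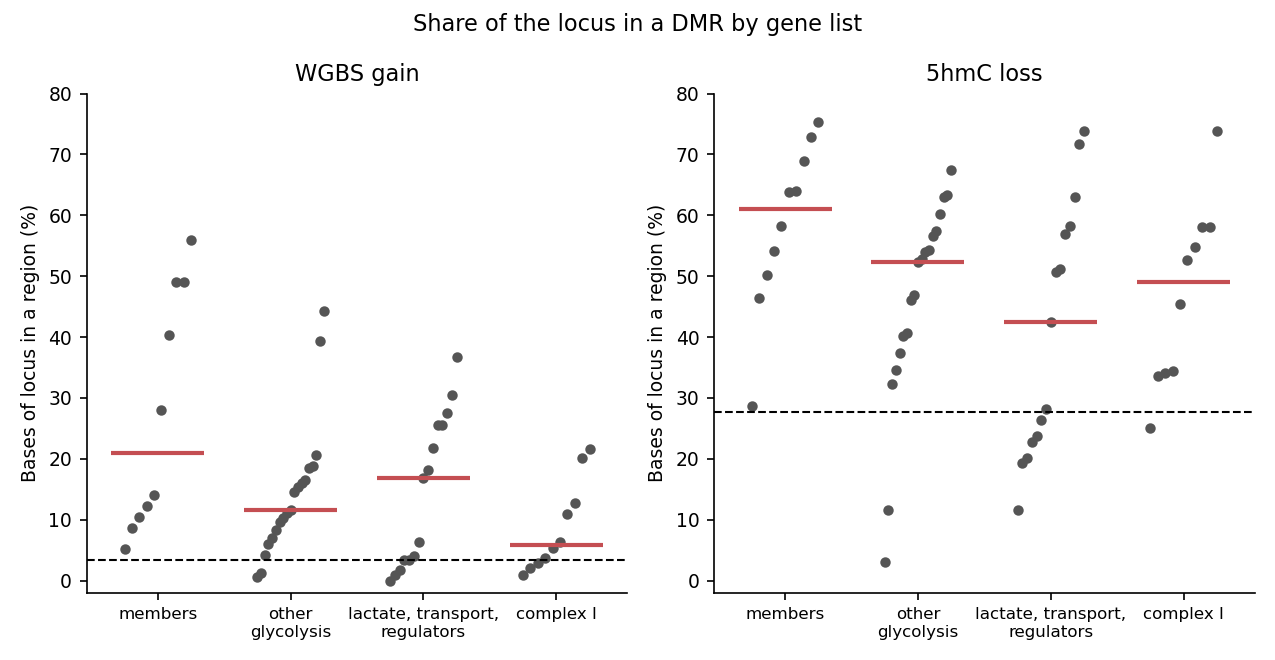
Percent of the bases of each locus in a WGBS gain (left) or a 5hmC loss (right) for the 10 members and 3 further gene lists, 1 point per gene, with the median of each list in red and the median over all protein-coding genes dashed. Every list median was above the dashed line in both panels, and the lists overlapped.

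Promoter sequences of the members were searched for short motifs on both strands. RefSeq gives 16 promoters of 300 bases for the 10 genes. The core ACGTG of hypoxia response elements, which overlaps the E-box CACGTG, was in 8 of 16 (50%), beside 19.6% of 32851 RefSeq promoters. Both motifs hold a CpG, and CpG content was not matched between the member promoters and all RefSeq promoters. CACGTG was in 1 of 16 (6.25%, beside 7.15%). The letters TAATCC, a core of CRX-type homeodomain sites, were in 3 of 16 (18.8%, beside 7.06%). In the central 300 bases of the 120 gains the shares were 20%, 6.67% and 13.3%, beside 22%, 6.66% and 15.3% of all 191164 WGBS gains. Several of the 16 promoters belong to 1 gene and overlap, and a match is a run of letters, not a bound site.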

How the data were processed

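Samples were grouped by their labels, 3 per genotype and assay, all from P21 whole retina. The authors' methods give read trimming (TrimGalore 0.4.4), alignment to mm10 (Bismark 0.18.2), a mapping quality of at least 10, removal of duplicates (Picard), CpG levels (MethylDackel 0.6.1) and DMR calls on smoothed levels (DSS 2.48.0, p threshold 0.01, at least 3 CpGs and 50 bp). Smoothing can make borders and levels less exact and may favour dense CpGs, which was not tested here. The authors' group means are a fraction from 0 to 1, printed as percentages. The deposited score columns hold the authors' own difference and area statistic and were not used.

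Changes were computed as Tet tcKO minus Cre- with pandas (2.3.3). Shares are of locus bases and means are weighted by CpGs. Start sites came from basic protein-coding transcripts. Every region began and ended on a CpG of GRCm38, and 118 of 120 WGBS and 171 of 180 bACE-seq regions had the CpG number of the reference. Overlap code was tested on simulated loci. Sequences came from GRCm38 and RefSeq.

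For each member, the gain with the most CpGs and each region that covers or is nearest to a start site were named, with the 5 highest and 5 lowest shares among 44 further genes. Of these, 1 gene is not reported here. Windows were printed for the 4 members with the largest change among gains of at least 5 CpGs, and promoters for members with a start site in a gain. Other regions were named after their values were seen. The members and lists were chosen with earlier results of these data known. The alternatives tried are given in the closing section.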

Additional observations from a re-analysis of the deposited data

How the results depend on the processing

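The lists give group means and no replicate values or read depth, so no precision could be attached to a level. No paired analysis was possible because the lists hold no values per replicate, and for the same reason no replicate could be left out. A count or share was taken as moved when it changed by more than 1.5 times, and a level when it changed by 5 points or more. Of 197 alternatives over 44 results, 160 stayed within these bounds, 37 moved and 0 changed direction. The last count was fixed in advance, since counts, shares and levels have no sign. The mean changes could not turn either, as all regions of an assay at these loci went the same way. With regions of at least 10 CpGs, 66 WGBS gains were left. With group means that differed by at least 0.2, 39 WGBS gains and 25 5hmC losses were left, and the median shares of bases were 11.5% and 17%. The unweighted Cre- level of the WGBS gains was 58.7%. With a promoter window of 1 kb, the median share of promoter bases in 5hmC losses was 29%. With no flank, the median share of bases in gains was 27.5% for the lactate, transport and regulator genes and 3.1% for complex I, beside 28.8% for the members and 2.77% for all protein-coding genes. With differences of at least 0.1, these regulators had 9.54% of bases in gains and 28.2% in 5hmC losses, and complex I had 30.9% in 5hmC losses. The other moved values were shares of single members, and several that changed the order of the members are given above. By share of CpGs in gains, Pfkp moved to 15.8% and passed Pfkl (13.2%). Ldhb and Aldoc had 0% of bases in gains that differed by at least 0.2. The use of both gene records of Aldoa was chosen after seeing the data.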
